A study of Mus musculus with 12 samples.

Results

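The lysosome and autophagy genes are a set of 35 named genes for the enzymes, membrane proteins, proton pump and transcription factors of the lysosome and for the machinery that delivers cell material to it. They were chosen by name from a fixed list, with no measured value in the rule, though with earlier results of these data known. On the arrays 33 of the 35 were found, out of 18820 genes measured. Ctsb and Becn1 were not used, because each shares its 2 probe sets with another symbol. The 33 genes fall into 13 hydrolases and other lumenal proteins, 4 membrane proteins, 8 subunits of the proton pump, 2 transcription factors and 6 autophagy genes. All 33 had a mean signal above the 30th percentile of gene means, which was 4.12 on the log2 scale.

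The cells were primary cultures of B lymphomas from λ-MYC;B1-8f mice of strain C57BL/6J x BALB/c. In these mice a MYC transgene drives the tumours and Cre can delete the variable part of the B-cell receptor (BCR) heavy chain. The cultures were treated with TAT-Cre, a cell-permeable recombinase, so that BCR-negative and BCR-positive cells of the same lymphoma grew side by side for 4 days, with or without CHIR99021, an inhibitor of the kinase GSK3. The sorted cells form 4 groups of 3 arrays: BCR-negative cells with CHIR99021, BCR-positive cells with CHIR99021, untreated BCR-negative cells and untreated BCR-positive cells. All 4 groups carry the MYC transgene and come from Cre-treated cultures, and lymphomas 2564, 2646 and 2676 each gave 1 array to each group. Values are RMA log2 expression values, given in the order 2564, 2646, 2676. Changes are mean log2 differences ± standard error (SE) from limma with lymphoma as a block (n = 3 lymphomas), and a gene was called when its p-value, adjusted over all 18820 genes, was under 0.05.

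Lysosomes are acidic compartments in which hydrolases break down proteins, lipids and sugars that arrive by endocytosis or autophagy. A proton pump, the V-ATPase, keeps them acidic, and heavily glycosylated membrane proteins such as Lamp1 and Lamp2 line them. In autophagy the Ulk1 kinase complex starts a membrane, Wipi proteins and Atg2 extend it, and small proteins of the LC3 and GABARAP families are coupled to it and bind cargo receptors. TFEB and TFE3 are transcription factors that switch on many of these genes, and their activity is set largely by their movement in and out of the nucleus, which RNA levels do not show. In B cells the lysosomal cathepsins also cut antigen and the invariant chain for presentation on MHC class II.

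TFEB and TFE3 bind an element with the core CACGTG, the letters that MYC and its partner MAX bind as well. Promoters are shown here because many of the lysosomal genes share that core. RefSeq promoters of assembly GRCm38.p6, 250 bases before to 50 bases after a start site, could be matched for 28 of the 33 genes. CACGTG, which reads the same on both strands, was in 9 of the 28 (32.1%), against 8.09% of 27025 genes with such a promoter. The longer TCACGTGA, which contains it, was in 6 of the 28 (21.4%), those of Ctsa, Ctsd, Gla, Mcoln1, Atp6v0d1 and Atp6v1a, against 1.12% of the 27025 genes. TCACGTGA, too, reads the same on both strands. With a G before it and a C after it, it was in 0 of the 28, against 0.37% of the 27025 genes. None of the matched autophagy genes or of the 2 factor genes of the set had CACGTG in this window, but 5 of 28 other autophagy genes of a wider pathway list did (17.9%). Of 26 other hydrolases on that list 6 had CACGTG (23.1%) and 0 had TCACGTGA. The stretches below are on the gene's own strand, with CACGTG in capitals. They lie at chr8:3500428-3500499 (Mcoln1, plus strand), chr8:13159080-13159160 (Lamp1, plus strand), chr7:142387900-142387945 (Ctsd, minus strand), chr2:164833741-164833772 (Ctsa, plus strand), chrX:134601174-134601252 (Gla, minus strand) and chr16:44139365-44139410 (Atp6v1a, minus strand).
Mcoln1: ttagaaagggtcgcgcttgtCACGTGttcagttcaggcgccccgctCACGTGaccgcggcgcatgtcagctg
Lamp1: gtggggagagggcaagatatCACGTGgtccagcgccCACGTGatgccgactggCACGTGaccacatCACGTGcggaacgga
Ctsd: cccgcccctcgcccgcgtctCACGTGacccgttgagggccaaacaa
Ctsa: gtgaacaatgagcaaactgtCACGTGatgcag
Gla: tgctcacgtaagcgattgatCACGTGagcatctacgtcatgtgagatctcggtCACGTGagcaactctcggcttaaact
Atp6v1a: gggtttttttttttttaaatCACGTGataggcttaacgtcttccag
The Lamp1 stretch holds 4 copies of the core within 81 bases and those of Mcoln1 and Gla hold 2 each. Ctsd has a second copy in its window outside the stretch shown.

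Ighv1-72, the germline segment from which the B1-8 heavy chain derives, served as the check of BCR loss. In BCR-negative cells of CHIR99021 cultures it fell by 2.95 ± 0.331 (adjusted p = 0.0498). In those of untreated cultures it fell by 2.11 ± 0.331 (adjusted p = 0.0176). The array medians lay between 4.71 and 4.92. The B-cell markers Cd79a, Cd79b and Pax5 were well above the dim limit on every array, while Ms4a1 was dim. Since macrophages are rich in lysosomal enzymes, their markers were looked at: 11 of 12 listed were found and 4 of them (Adgre1, Cd14, C1qb, Lyz2) were dim. Their summed signal, on the linear scale, ranged from 300.2 to 547 in BCR-negative and from 290.4 to 657 in BCR-positive cells with CHIR99021, and from 322 to 669 in untreated BCR-negative and 283 to 471 in untreated BCR-positive cells. The part of such cells in the results below was not tested. In sorted populations of this kind, fewer cells that express a gene and less RNA per cell cannot be told apart.

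The largest differences among the lysosome genes were between lymphomas, not between groups, a pattern noted after the values were seen and given as a description. Lamp2, a main protein of the lysosomal membrane and the receptor of chaperone-mediated autophagy, was at 9.25 to 9.78 on the 4 arrays of lymphoma 2564 and at 10.12 to 10.41 on those of 2646. In lymphoma 2676 it was at 3.04 to 3.21, below the dim limit. The range of its lymphoma means, 7.16, was the widest of all 18820 genes. Cul4b, a scaffold of ubiquitin ligases and the next measured gene on the X chromosome, had the same pattern, with 8.54 to 8.77 in 2564, 8.46 to 8.77 in 2646 and 3.04 to 3.58 in 2676, and the fifth widest range. The other measured neighbours, 4 on the Lamp2 side and 3 beyond Cul4b, did not share it, although Rhox12, Atp1b4 and 6030498E09Rik were dim in every lymphoma and could not show it. Zbtb33 was at 8.14 to 8.33 in lymphoma 2676, at 7.73 to 8.23 in 2564 and at 8.21 to 8.48 in 2646. Mcts1, the gene beyond Cul4b, was at 5.69 to 6.52 in lymphoma 2676, at 5.79 to 6.37 in 2564 and at 5.78 to 6.54 in 2646.

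Hexa, which encodes the alpha subunit of beta-hexosaminidase, had lymphoma means of 5.25, 8.41 and 7.18. The levels of the 3 lymphomas did not overlap, and the 4 arrays of each lymphoma lay within 0.5. Gabarapl1, a GABARAP family protein, had lymphoma means of 5.03, 7.06 and 3.94, and in 2676 its 4 arrays lay at 3.75 to 4.02, below the dim limit. Ctsl (6.39, 5.96 and 4.58) and Gaa, the lysosomal alpha-glucosidase (8.87, 7.46 and 7.61), also differed by more than 1, as did Ctss. In all 6 of the 33 genes had lymphoma means more than 1 apart, against 6.77% of all genes, and the median range was 0.379 for the 33 genes and 0.156 for all genes. At the other end, the lymphoma means of Lamp1, Gabarapl2, Atp6v1d and Atp6v1b2 were no more than 0.11 apart.

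**Figure D1:**
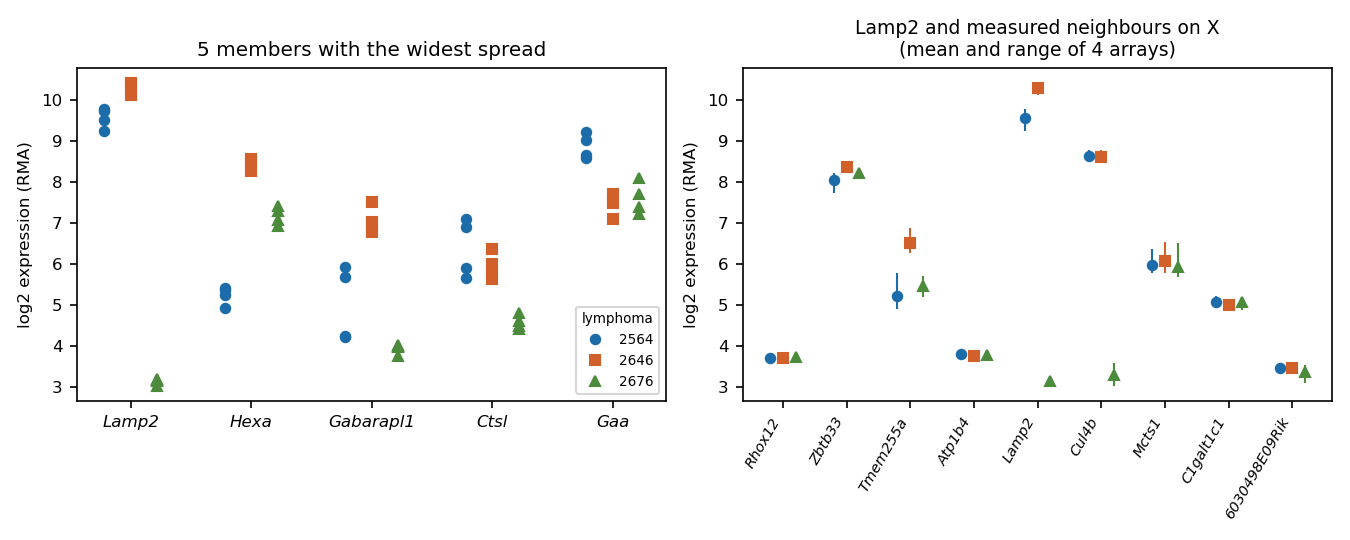
Log2 expression of 5 lysosome and autophagy genes on each of 12 arrays (left), and of Lamp2 and its measured neighbours in their order on the X chromosome (right; symbols are means and lines the range of 4 arrays), coloured by lymphoma. Lamp2 and Cul4b lie between 3.04 and 3.58 in lymphoma 2676 and above 8 in the others.

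The first comparison asked what BCR loss did in untreated cultures, sorted at a time when the submitters saw counterselection of BCR-negative cells. Of the 33 genes 1 was called, the cathepsin gene Ctsh, which was lower. Of all genes 4.20% were called, 1.91% higher and 2.30% lower. Ctsh encodes an aminopeptidase of the lysosome. Its values were 6.88, 6.54 and 6.57 in untreated BCR-negative cells, against 7.85, 7.58 and 7.25 in untreated BCR-positive cells. The groups did not overlap, and in every lymphoma the BCR-negative cells were lower. Ctsh fell by 0.90 ± 0.214 (adjusted p = 0.0491), to 53.7% of the level in BCR-positive cells. The call was close to the threshold: the adjusted p ran from 0.0113 to 0.398 over 23 alternatives, and it was kept in 4 of 8 other settings and in 3 of 15 fits that left out arrays (those without lymphoma 2564, without its untreated BCR-negative array and without its CHIR99021-treated BCR-positive array).

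The remaining hydrolases and lumenal proteins did not pass the test. Psap, the precursor of the saposins that help lipid breakdown, had 11.03, 11.66 and 11.34 in untreated BCR-negative cells, against 10.97, 11.28 and 10.96 in untreated BCR-positive cells, a difference of 0.28 ± 0.0763 (adjusted p = 0.0719). Neu1, a sialidase (0.28, adjusted p = 0.108), and Tpp1, a peptidase (0.25, adjusted p = 0.143), were also higher in all 3 lymphomas without being called. Ctsz, a carboxypeptidase (-0.23, adjusted p = 0.227), and Gla, alpha-galactosidase (-0.25, adjusted p = 0.144), were lower in all 3. The 13 genes thus ran both ways, with a median of 0.10.

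Of the membrane proteins, Mcoln1, the lysosomal calcium channel whose promoter stretch with 2 CACGTG cores is shown above, came closest to a call. It had 9.37, 9.14 and 9.22 in untreated BCR-negative cells, against 9.02, 8.95 and 8.87 in untreated BCR-positive cells. The groups did not overlap and the difference was 0.30 ± 0.0731 (adjusted p = 0.0527). It was called in 2 of 8 other settings, when dim genes were left out (adjusted p = 0.0466) and after cyclic loess scaling (adjusted p = 0.0356). Of 15 fits that left out arrays 2 called it, and over all alternatives its adjusted p reached 0.466. Lamp1 (0.06), Lamp2 (-0.02) and the cholesterol transporter Npc1 (0.08) differed by less than their SE. Lamp2 had 9.25, 10.29 and 3.21 in untreated BCR-negative cells, against 9.52, 10.12 and 3.14 in untreated BCR-positive cells. It was thus lower in 2564, higher in 2646 and below the dim limit in 2676. Of the pump subunits Atp6v0a1, in the membrane sector, had the smallest p (0.15 ± 0.0606, adjusted p = 0.203), and the median of the 8 subunits was 0.06. Tfe3 had 7.44, 8.16 and 7.9 in untreated BCR-negative cells, against 7.45, 7.81 and 7.43 in untreated BCR-positive cells, so that it was higher in 2646 and 2676 and nearly equal in 2564 (0.27 ± 0.1, adjusted p = 0.155). Tfeb differed by -0.12 (adjusted p = 0.359).

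Of the 6 autophagy genes none was called. Wipi1, which binds the lipid that marks a forming autophagosome, had 5.22, 5.14 and 6.02 in untreated BCR-negative cells, against 5.04, 4.95 and 5.15 in untreated BCR-positive cells (0.41 ± 0.143, adjusted p = 0.132). Gabarapl1 had 5.94, 7.52 and 3.99 in untreated BCR-negative cells, against 4.26, 6.89 and 4 in untreated BCR-positive cells. The difference in Gabarapl1 was 1.68 in 2564, 0.63 in 2646 and -0.00 in 2676, where it was dim, with a mean of 0.77 ± 0.348 (adjusted p = 0.251). Ulk1, the starting kinase, was higher in each lymphoma (0.24, adjusted p = 0.195) and Uvrag, a subunit of the class III PI3-kinase complex, was lower in each (-0.19 ± 0.0624, adjusted p = 0.117).

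Lymphoma 2564 differed from the other lymphomas in this comparison. The median difference of the 33 genes was -0.15 in 2564, 0.19 in 2646 and 0.11 in 2676. The median of the 33 mean differences was 0.09, while that of all genes was -0.00. At an unadjusted p under 0.05, 13 of the 33 genes passed (8 higher and 5 lower), against 20.5% of all genes. Leaving out lymphoma 2646 or 2676 gave 0 calls among the 33 genes, where 0 and 0.117% of all genes were called. Without lymphoma 2564, 5 of the 33 genes were called, against 4.88% of all genes in that fit: Ctsh, lower, and Ctsl, Psap, Npc2 and Tfe3, higher. Without only its untreated BCR-negative array, 6 were called, against 6.4% of all genes: Ctsh, Ctsd, Psap, Npc2, Tfe3 and Map1lc3b. Npc2, which carries cholesterol inside the lysosome, shows the split: 7.8, 8.51 and 8.64 in untreated BCR-negative cells, against 8.04, 7.92 and 8.1 in untreated BCR-positive cells.

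Markers of other cells also differed with BCR loss in untreated cultures. Of the 6 plasma cell markers Prdm1 was called: it had 4.71, 6.56 and 6.75 in untreated BCR-negative cells, against 4.14, 4.56 and 4.44 in untreated BCR-positive cells, and rose by 1.62 ± 0.293 (adjusted p = 0.0248). Irf4 (0.50, adjusted p = 0.0643) and Sdc1 (0.35, adjusted p = 0.23) had unadjusted p-values under 0.05, while Jchain was dim. These markers did not move together: 3 of the 6 had a positive and 3 a negative mean difference, with Xbp1 and Mzb1 among the negative. Of the 11 macrophage markers none was called, and 7 had a positive and 4 a negative mean difference, with a median of 0.07. Itgam had the smallest p among them (0.76 ± 0.261, adjusted p = 0.13). The part of these shifts in the lysosome and autophagy values was not tested.

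**Figure D2:**
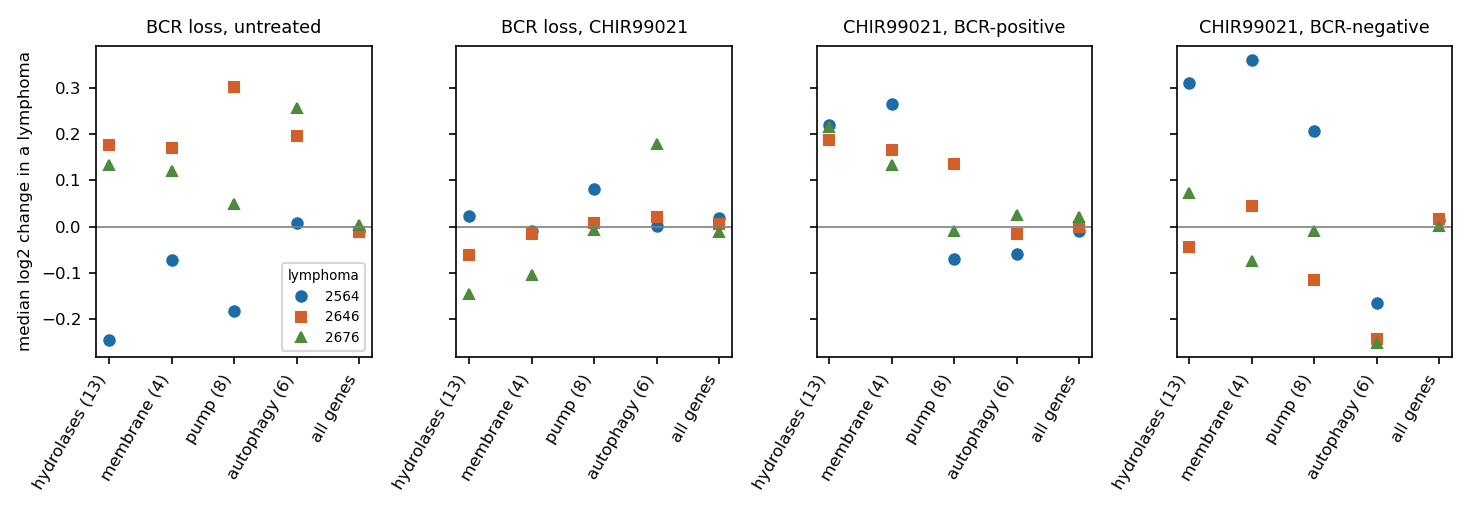
Median log2 difference of the genes of each role, one point per lymphoma, in 4 comparisons (BCR-negative minus BCR-positive, or CHIR99021 minus untreated), beside the median of all 18820 genes. In untreated cultures the hydrolases had a median of -0.24 in lymphoma 2564, against 0.18 and 0.13 in the others, and the autophagy genes lay below 0 in every lymphoma when BCR-negative cells had CHIR99021.

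The second comparison asked what GSK3 inhibition did in BCR-negative cells. None of the 33 genes was called by limma, against 3.68% of all genes (1.91% higher, 1.76% lower), and 8 of the 33 had an unadjusted p under 0.05, against 19.0% of all genes. Those 8 were Ctsh, Ctsz, Hexa, Lamp1, Atp6v1c1 and Atp6v1h, higher with CHIR99021, and Map1lc3b and Gabarapl2, lower. The median over the 33 genes was 0.01, the same as over all genes.

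Among the hydrolases Ctsz had 10.62, 10.87 and 9.84 with CHIR99021, against 9.97, 10.61 and 9.58 in untreated BCR-negative cells (0.39 ± 0.0993, adjusted p = 0.062). It was higher with CHIR99021 in each lymphoma, and the groups overlapped because the lymphomas differ. Ctsh had 7.19, 7.52 and 7.41 with CHIR99021, against the 6.88, 6.54 and 6.57 given above, without overlap (0.71 ± 0.214, adjusted p = 0.0996). Ctsh was called without lymphoma 2564 (adjusted p = 0.0183) and without its CHIR99021-treated BCR-positive array (adjusted p = 0.037). Lamp1 had 10.21, 10.26 and 10.12 with CHIR99021, against 9.83, 10.07 and 10.1 in untreated BCR-negative cells (0.20 ± 0.0727, adjusted p = 0.171). Of the pump, Atp6v1c1, a stalk subunit, differed by 0.21 ± 0.0752 (adjusted p = 0.152). Tfeb was at 0.08 ± 0.0637 and Tfe3 at -0.08 ± 0.1.

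The autophagy genes lay on the other side, with a median of -0.25 and 5 of 6 negative. Map1lc3b, which encodes LC3B, had 9.57, 9.59 and 9.9 with CHIR99021, against 9.74, 10.15 and 10.22 in untreated BCR-negative cells. It was lower in each lymphoma, by 0.17, 0.56 and 0.32, and the mean difference of -0.35 ± 0.0941 had an adjusted p of 0.0725. Gabarapl2 (-0.20 ± 0.0706, adjusted p = 0.144), Gabarapl1 (-0.41 ± 0.348) and Wipi1 (-0.30 ± 0.143) were lower in each lymphoma without being called. In lymphoma 2676, however, both Gabarapl1 values (3.75 with CHIR99021 and 3.99 untreated) were below the dim limit. Uvrag was at 0.11 ± 0.0624. The medians of the 6 genes by lymphoma were -0.16, -0.24 and -0.25. Without the untreated BCR-negative array of lymphoma 2564, Map1lc3b (adjusted p = 0.019) and Gabarapl2 (adjusted p = 0.0354) were called, and without the CHIR99021-treated BCR-negative array of 2676, Ctsz was (adjusted p = 0.0475).

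**Figure D3:**
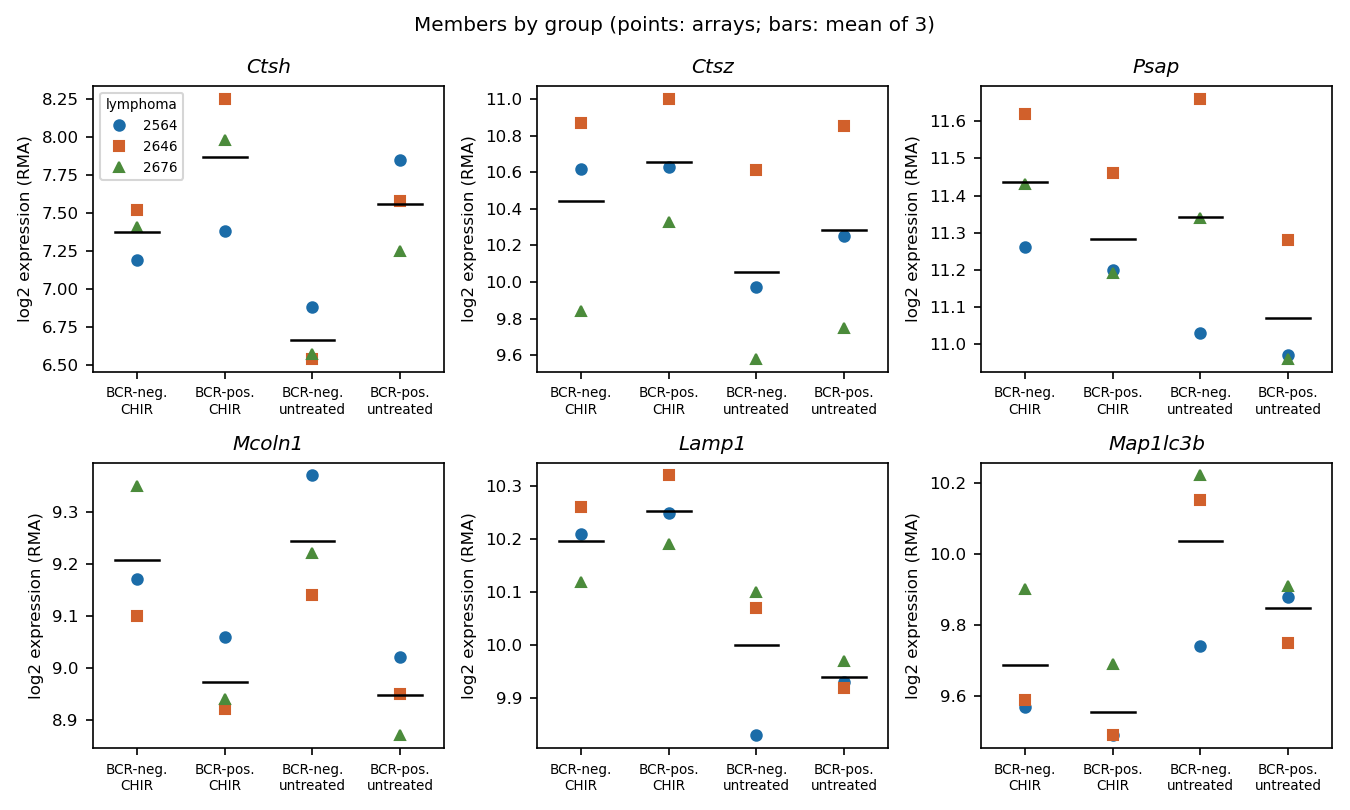
Log2 expression of 6 lysosome and autophagy genes by group, with 1 point per lymphoma and a bar at the mean of 3. Ctsh is lowest in untreated BCR-negative cells (6.54 to 6.88), Lamp1 lies higher with CHIR99021 (10.12 to 10.32) than without (9.83 to 10.1), and Map1lc3b is highest on average in untreated BCR-negative cells.

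In BCR-positive cells CHIR99021 also led to no call among the 33 genes, where 0.0744% of all genes were called. At an unadjusted p under 0.05 there were 9 (7 higher, 2 lower), against 10.0% of all genes. The hydrolases leaned upward: 12 of 13 had a positive mean and 9 were higher in all 3 lymphomas, where 18.6% of all genes were higher in all 3. Their median was 0.25, while that of all genes was 0.00. Neu1 had 7.58, 7.56 and 7.16 with CHIR99021, against 7.32, 7.19 and 6.68 in untreated BCR-positive cells (0.37 ± 0.0909, adjusted p = 0.179). Ctsz (0.37 ± 0.0993), Gaa (0.50 ± 0.188), Tpp1 (0.25 ± 0.0907), Psap (0.21 ± 0.0763) and Ctss (0.28 ± 0.127) had unadjusted p-values under 0.05 and adjusted p-values of 0.227 to 0.496. Lamp1 had 10.25, 10.32 and 10.19 with CHIR99021, against 9.93, 9.92 and 9.97 in untreated BCR-positive cells. The groups did not overlap (0.32 ± 0.0727, adjusted p = 0.153).

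The pump subunits had a median of 0.03 in BCR-positive cells, and Atp6ap1, an accessory subunit, had the smallest p (-0.16 ± 0.0729, adjusted p = 0.4997). Map1lc3b had 9.49, 9.49 and 9.69 with CHIR99021, against 9.88, 9.75 and 9.91 in untreated BCR-positive cells, without overlap (-0.29 ± 0.0941, adjusted p = 0.3). Gabarapl2 was at -0.18 ± 0.0706 (adjusted p = 0.419), and Wipi1, Ulk1, Gabarapl1 and Uvrag were within 0.08 of 0. Genes with CACGTG in the promoter window had a median difference of 0.12 (9 genes, 8 positive) and those without it 0.07 (19 genes, 14 positive). In BCR-negative cells the same medians were 0.01 and -0.005. For BCR loss they were 0.09 with and 0.19 without the core in untreated cultures, and -0.01 and 0.02 in CHIR99021 cultures, so that genes with the core lay lower there.

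Markers of other cells moved in the CHIR99021 comparisons as well. In BCR-positive cells the macrophage marker Csf1r differed by 0.95 ± 0.231 (adjusted p = 0.168), by 0.31 in 2564, 1.57 in 2646 and 0.98 in 2676. In BCR-negative cells it differed by 0.36 ± 0.231 (adjusted p = 0.478), while Lyz2, dim on average, rose by 0.46 ± 0.1 (adjusted p = 0.0388). The median over the 11 macrophage markers was -0.04 in BCR-negative cells and 0.04 in BCR-positive cells. All 7 B-cell markers had negative means in both comparisons, and Cd79b fell by 0.33 ± 0.0604 in BCR-negative cells (adjusted p = 0.024). The plasma cell marker Prdm1 was at -1.12 ± 0.293 in BCR-negative cells (adjusted p = 0.0657) and at -0.01 ± 0.293 in BCR-positive cells. Of the 6 plasma cell markers 3 had a positive and 3 a negative mean in each comparison. Their median was -0.05 in BCR-negative cells and 0.06 in BCR-positive cells. The part of these shifts in the values of the 33 genes and of the other autophagy genes below was not tested.

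**Figure D4:**
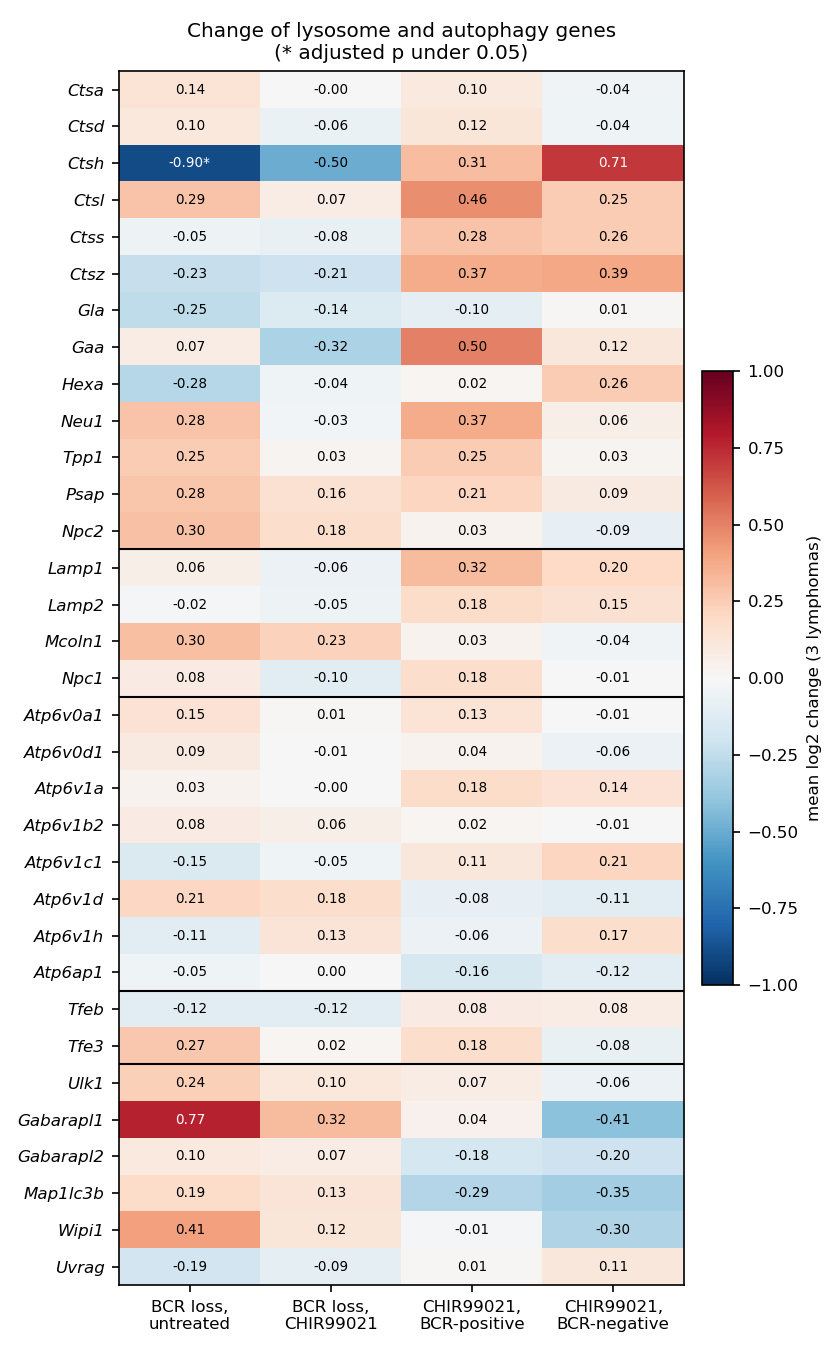
Mean log2 differences of the 33 lysosome and autophagy genes in 4 comparisons, grouped by role from top to bottom (hydrolases and lumen, membrane, pump, factors, autophagy). The asterisk marks Ctsh (-0.90), the gene with an adjusted p under 0.05. The hydrolases are mostly positive in the column for CHIR99021 in BCR-positive cells and the autophagy genes mostly negative in the column for BCR-negative cells.

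With CHIR99021 present, BCR-negative and BCR-positive cells showed no called difference among the 33 genes, where 0.0159% of all genes were called. At an unadjusted p under 0.05 there were 2, Mcoln1 (0.23 ± 0.0731, adjusted p = 0.495) and Ctsh (-0.50 ± 0.214, adjusted p = 0.567), against 8.65% of all genes. Mcoln1 had 9.17, 9.1 and 9.35 in BCR-negative cells with CHIR99021, against 9.06, 8.92 and 8.94 in BCR-positive cells with CHIR99021. Ctsh had 7.19, 7.52 and 7.41, against 7.38, 8.25 and 7.98. Both differences had the sign seen in untreated cultures. The median of the 33 genes was -0.00.

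The difference between the effects of BCR loss with and without CHIR99021, tested as an interaction, was called for none of the 18820 genes by limma (990 had an unadjusted p under 0.05, 5.26%). Of the 33 genes 2 had an unadjusted p under 0.05: Neu1 (-0.31 ± 0.129) and Atp6v1h, a regulatory pump subunit (0.24 ± 0.0917), both with an adjusted p of 0.928. For Ctsh the interaction was 0.40 ± 0.303 (adjusted p = 0.976). A difference of the effect of BCR loss with and without the inhibitor was thus not shown for any of the 33.

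BCR-negative cells with CHIR99021 were also set against untreated BCR-positive cells. None of the 33 genes was called, where 0.0159% of all genes were called, and 7 had an unadjusted p under 0.05, against 8.74% of all genes. The smallest p was that of Psap, with 11.26, 11.62 and 11.43 in BCR-negative cells with CHIR99021, against 10.97, 11.28 and 10.96 in untreated BCR-positive cells (0.37 ± 0.0763, adjusted p = 0.158). Neu1 (0.34 ± 0.0909), Lamp1 (0.26 ± 0.0727), Mcoln1 (0.26 ± 0.0731) and Tpp1 (0.28 ± 0.0907) were higher in each lymphoma, and Gla was lower in each (-0.24 ± 0.0906). The median was 0.11, against 0.01 for all genes. This comparison, BCR loss in untreated cultures and CHIR99021 in BCR-positive cells share the untreated BCR-positive arrays, so their like signs are not independent.

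A wider list of 119 other genes of the pathway, of which 105 were found, shows where calls lay outside the 33. In BCR-negative cells with CHIR99021, 11 of 31 other autophagy genes were called, 10 lower and 1 higher, against the 3.68% of all genes. The 6 with the smallest p were Atg101 and Atg13, of the Ulk1 complex, the cargo receptors Tax1bp1 and Calcoco1, the Wipi relative Wdr45 and the lipid transfer protein Atg2a. Calcoco1 had 7.01, 7.19 and 7.65 with CHIR99021, against 8.23, 9.05 and 8.97 in untreated BCR-negative cells, and fell by 1.47 ± 0.171 (adjusted p = 0.00494). Wdr45 had 7.86, 8.15 and 8.39, against 8.93, 9.34 and 9.26, and fell by 1.04 ± 0.114 (adjusted p = 0.00404). Neither gene's groups overlapped. Atg13 fell by 0.91, Atg2a by 0.74, Atg101 by 0.61 and Tax1bp1 by 0.55, each in all 3 lymphomas. The 11 became 6 with lymphoma as a random block, 4 with only the arrays compared and 0 without the block (9 unadjusted, limma). Without lymphoma 2646 none of the 31 was called (14 had an unadjusted p under 0.05), and 0 of all genes were. Without 2676 there were 5 (0.93% of all genes), and without 2564 there were 6 (0.6% of all genes). Without the CHIR99021-treated BCR-negative array of 2564 (0.303% of all genes) or of 2646 (0.271%) there were 6. Without the untreated BCR-negative array of 2646 there were 7 (0.59% of all genes).

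**Figure D5:**
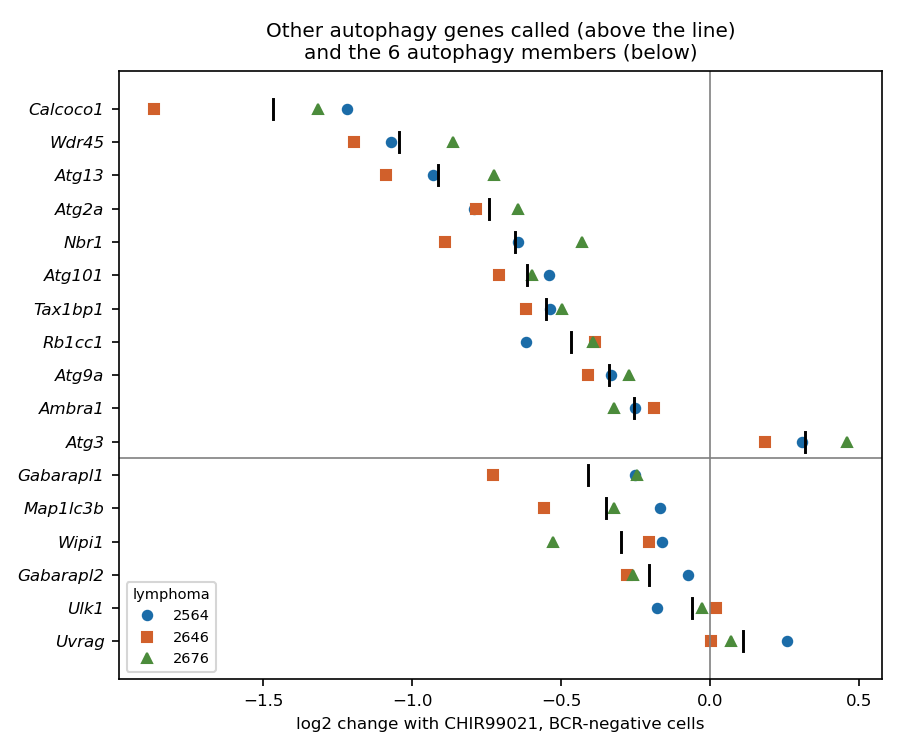
Log2 difference (CHIR99021 minus untreated) in BCR-negative cells for the 11 other autophagy genes called and, below the line, the 6 autophagy genes of the set, with 1 point per lymphoma and a bar at the mean. Calcoco1 (-1.47) and Wdr45 (-1.04) lie farthest to the left, and the 6 genes of the set lie between -0.41 and 0.11.

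In BCR-positive cells 1 of the 31, Tax1bp1, was called with CHIR99021, where 0.0744% of all genes were called. Of the 31, 24 had a negative and 7 a positive mean there. At an unadjusted p under 0.05 there were 11 (10 lower, 1 higher), against 10.0% of all genes. The interaction was called for none of the 31 by limma. Tax1bp1 had 8.35, 8.61 and 8.61 with CHIR99021, against 8.98, 9.01 and 9.11 in untreated BCR-positive cells, and fell by 0.51 ± 0.0588 (adjusted p = 0.0387). It was called in 6 of 8 other settings and in 5 of 15 fits that left out arrays, and in none that left out a whole lymphoma. Calcoco1 was at -0.74 ± 0.171 (adjusted p = 0.153) and Wdr45 at -0.80 ± 0.114 (adjusted p = 0.0525) there. With BCR loss in untreated cultures 4 of the 31 were called, all higher (4.20% of all genes were called): Calcoco1 (1.11 ± 0.171, adjusted p = 0.0171), Atg2a (0.39 ± 0.0812, adjusted p = 0.033), Atg9a, a lipid scramblase of autophagy (0.27 ± 0.0544, adjusted p = 0.0317), and Tax1bp1 (0.26 ± 0.0588, adjusted p = 0.0444). This comparison and that of CHIR99021 in BCR-negative cells share the untreated BCR-negative arrays, so their opposite signs are not independent. Calcoco1 had 7.54, 7.32 and 8.07 in untreated BCR-positive cells, below the untreated BCR-negative values above in each lymphoma. The 4 became 1 with lymphoma as a random block and 0 without the block (5 unadjusted, limma) or with only the arrays compared (16 unadjusted). None of the 31 was called without lymphoma 2646 (0 of all genes) or without 2676 (0.117% of all genes). The same held without the untreated BCR-positive array of 2646 (0.25% of all genes) or of 2676 (0.239%). Without any other single array of 2646 there was 1 (0.468% to 2.36% of all genes). Without the untreated BCR-negative array of 2676 there were 2 (1.93% of all genes).

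Of the 29 other hydrolases 2 rose in BCR-negative cells with CHIR99021, where 1.91% of all genes were called higher, and nothing particular to the list is read from that count. Ctsc, the dipeptidyl peptidase that activates serine proteases, had 10.1, 10.04 and 9.94, against 8.96, 9.56 and 9.6 in untreated BCR-negative cells (0.66 ± 0.135, adjusted p = 0.0334), and Gusb, beta-glucuronidase, rose by 0.34 ± 0.0763 (adjusted p = 0.0428). Each was called in 4 of 8 other settings, and Ctsc in 7 and Gusb in 3 of 15 fits that left out arrays. Of 17 genes of the signalling that controls TFEB, Lamtor3 (0.34, adjusted p = 0.0369) and Rraga (0.38, adjusted p = 0.0421), which recruit mTORC1 to the lysosome, rose in the same comparison, beside the same share of all genes. Each was called in 4 of 8 other settings, and Lamtor3 in 3 and Rraga in 2 of the 15 fits. None of the 16 other membrane proteins or the 12 other pump subunits was called in any of the 6 comparisons by limma, where 0 to 4.20% of all genes were. At an unadjusted p under 0.05 there were up to 5 and up to 2 of them, against 5.26% to 20.5% of all genes. The 5 membrane genes were higher with BCR loss in untreated cultures, where the share of all genes was 20.5%. Gsk3b itself, a target of the inhibitor, did not pass the test for CHIR99021 in BCR-negative (0.04 ± 0.0527) or BCR-positive cells (-0.01 ± 0.0527).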

How the data were processed

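Total RNA of 12 sorted samples was measured on Affymetrix Mouse Gene ST arrays. The authors deposited log2 values for each probe set. The submitters' processing notes name RMA and Affymetrix Power Tools, with no version. Of 35556 probe sets, 21218 had 1 gene symbol in the platform annotation and 1881 had several and were not used. The probe set with the highest mean stood for a gene, which left 18820 genes. With arrays, their number limits the precision.

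A model with group and lymphoma was fitted to all 12 arrays with limma 3.58.1 in R 4.3.3 (6 residual degrees of freedom), with eBayes and Benjamini-Hochberg adjustment over 18820 genes, and was checked on simulated data. The labels give the pairing: each number is a lymphoma whose 2 populations shared a culture. Deviations from group means correlated at r of 0.813 to 0.907 within a lymphoma (18 pairs). P-values set a mean change against the spread of changes among these 3 lymphomas, pooled over the 4 groups and moderated by eBayes.

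The genes, lists and comparisons were chosen with earlier results of these data known. By rule, genes called in a comparison and the smallest p of each role were described in full, and up to 6 called genes of each wider list. Alternatives were no block, a random block, the compared arrays alone, leaving out dim genes, the mean of probe sets, array medians subtracted, cyclic loess, eBayes with trend and robust, and leaving out lymphomas or arrays. Promoters are from RefSeq, and 5 genes without an entry were left out of the motif counts.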

Additional observations from a re-analysis of the deposited data

Results flagged for a closer look

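Ctsa, the carboxypeptidase that protects Neu1, moved one way in every lymphoma of one population and the other way in every lymphoma of the other. With CHIR99021 its mean difference was -0.04 ± 0.0688 in BCR-negative cells, lower in 3 of 3 lymphomas but smaller than its SE. In BCR-positive cells it was 0.10 ± 0.0688, higher in 3 of 3. The difference between these effects was -0.14, and the interaction test gave an adjusted p of 0.964, so it did not pass.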

How the results depend on the processing

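No called result reversed under these alternatives. After array medians were subtracted or cyclic loess was applied, 0 to 4 of the 33 genes changed sign in a comparison, and up to 8 did when a lymphoma or an array was left out. With the replicate block removed, which ignores the stated pairing by lymphoma, 0 lysosome and autophagy genes were called for BCR loss in untreated cultures (2 at an unadjusted p under 0.05 by limma), and 0 other autophagy genes in that comparison and in both CHIR99021 comparisons (5, 7 and 9 unadjusted). With lymphoma as a random block these counts were 0, then 1, 0 (BCR-positive) and 6 (BCR-negative), and with only the arrays compared 0, then 0, 3 and 4. With only the arrays compared, 1 of the 33 genes, Gaa, was called with CHIR99021 in BCR-positive cells. Leaving out dim genes gave 2 of the 33 for BCR loss in untreated cultures and 2 other autophagy genes for CHIR99021 in BCR-positive cells. EBayes with trend and robust gave 2 and 2 there, and 1 of the 33, Ctsz, for CHIR99021 in BCR-negative cells. Rb1cc1 fell by 0.47 there, and by 0.19, without a call, with the mean of its probe sets. After cyclic loess Ctsh was not called for BCR loss (adjusted p = 0.0575), and neither were Ctsc, Gusb, Atg3, Lamtor3 and Rraga for CHIR99021 (0.0517 to 0.0716). The median of the 33 genes for BCR loss in CHIR99021 cultures moved to -0.03 after subtraction of array medians and to 0.02 after cyclic loess. Leaving out lymphomas or single arrays gave 0 to 6 of the 33 genes for BCR loss in untreated cultures and 0 to 2 for CHIR99021 in BCR-negative cells. For other autophagy genes it gave 0 to 6 for BCR loss, 0 to 3 for CHIR99021 in BCR-positive and 0 to 11 in BCR-negative cells. The median of the 33 genes ran from -0.06 to 0.04 for BCR loss in CHIR99021 cultures, from 0.09 to 0.15 for CHIR99021 in BCR-positive cells, from 0.06 to 0.13 for CHIR99021-treated BCR-negative against untreated BCR-positive cells, from 0.02 to 0.18 for BCR loss in untreated cultures, from -0.02 to 0.07 for CHIR99021 in BCR-negative cells and from -0.20 to -0.02 for the interaction. The cause of these shifts was not tested, other than that fits on fewer arrays have fewer degrees of freedom.

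Counts over all genes moved by more than 1.5 times as follows. For BCR loss in untreated cultures the 791 calls became 5 without the block, 75 with the random block and 0 with only the arrays compared (3527 unadjusted). For CHIR99021 in BCR-negative cells the 692 became 3, 81 and 29. For CHIR99021 in BCR-positive cells the 14 became 0, 1 and 109, 23 without dim genes, 9 after cyclic loess and 33 with trend and robust. The 3 calls for BCR loss in CHIR99021 cultures became 0 in all settings but 2, and the 3 of CHIR99021-treated BCR-negative against untreated BCR-positive cells became 0 without the block, with the random block and with only the arrays compared, and 5 with trend and robust. Leaving out lymphomas or arrays gave 0 to 1204 calls for BCR loss in untreated cultures, 0 to 840 for CHIR99021 in BCR-negative cells, 0 to 38 in BCR-positive cells, 0 to 4 for BCR loss in CHIR99021 cultures, 0 to 9 for CHIR99021-treated BCR-negative against untreated BCR-positive cells and 0 to 2 for the interaction. The alternatives for other autophagy genes were chosen after seeing the data.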
